A study of Rattus norvegicus with 4 samples.

Results

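The genes described here encode the transcription factors that answer cyclic AMP directly (Creb1, Crem and Atf1), the coactivators that join them on DNA (Crtc1, Crtc2, Crtc3, Crebbp and Ep300) and Sik1, a kinase that acts on the CRTC proteins. Every probe set of the array whose single platform gene symbol was one of these 9 names was taken, which gave 25 probe sets of the 31099 in the file. All 9 genes had at least 1 probe set, and Crem had the most, 6. They were measured in primary Sertoli cells, the nurse cells of the seminiferous tubule, of male Sprague-Dawley rats 20 days old, cultured without serum for 72 h at 32 °C. One group had no treatment (control, 2 arrays) and the other was cultured with cAMP (2 arrays), in a form and at a dose that the labels do not state. The labels call the arrays of a group biological replicates but do not say whether each was a preparation of its own, so the p-values below reflect the spread between these 4 samples only, part of which may be technical.

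As background, cAMP frees the catalytic subunits of protein kinase A, which phosphorylate CREB, the product of Creb1, within its kinase-inducible domain. The phosphorylated factor then recruits CBP and p300, the acetyltransferases encoded by Crebbp and Ep300. Salt-inducible kinases such as SIK1 hold the CRTC coactivators in the cytoplasm by phosphorylation, and cAMP signalling releases them to the nucleus. CREM is known in the testis for its activator forms in spermatids, and in cells answering cAMP for a short repressor form, ICER, made from an internal promoter of the Crem gene. In Sertoli cells cAMP is the second messenger of follicle-stimulating hormone.

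CREB family factors bind the cAMP response element, whose full palindrome is TGACGTCA and whose core is TGACG, called the core site here; each full site holds the core on both strands. The 250 bases before annotated starts of the 2 genes that rose with cAMP, Crem and Sik1, are shown because they hold the element in different forms. The sequences are from RefSeq, rat assembly GRCr8, 5′ to 3′ on the strand of the gene, with every full or core site on either strand in capitals.
Crem, start 1, chr17:58933816-58934065, plus strand: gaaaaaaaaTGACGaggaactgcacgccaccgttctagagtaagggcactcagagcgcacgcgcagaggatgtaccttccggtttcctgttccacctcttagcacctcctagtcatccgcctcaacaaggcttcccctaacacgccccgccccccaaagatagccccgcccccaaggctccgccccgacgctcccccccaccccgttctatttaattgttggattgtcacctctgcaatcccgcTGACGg
Crem, start 2, chr17:58984547-58984796, plus strand: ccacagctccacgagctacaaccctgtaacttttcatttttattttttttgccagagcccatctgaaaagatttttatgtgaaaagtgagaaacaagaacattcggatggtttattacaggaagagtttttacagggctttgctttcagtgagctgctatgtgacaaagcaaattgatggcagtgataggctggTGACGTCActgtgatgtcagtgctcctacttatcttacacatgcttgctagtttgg
Crem, start 3, chr17:58985240-58985489, plus strand: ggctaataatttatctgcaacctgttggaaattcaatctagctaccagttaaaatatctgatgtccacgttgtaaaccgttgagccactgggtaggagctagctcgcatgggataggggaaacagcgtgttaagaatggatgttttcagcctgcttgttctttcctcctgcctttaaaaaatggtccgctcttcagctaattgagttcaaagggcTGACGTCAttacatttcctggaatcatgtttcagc
Sik1, chr20:9958647-9958896, minus strand: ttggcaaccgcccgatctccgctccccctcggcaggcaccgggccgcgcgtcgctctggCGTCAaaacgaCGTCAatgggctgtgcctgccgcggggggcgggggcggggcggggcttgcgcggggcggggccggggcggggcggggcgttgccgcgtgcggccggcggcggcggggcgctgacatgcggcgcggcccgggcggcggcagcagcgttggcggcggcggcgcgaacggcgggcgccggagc
Crem starts 2 and 3 lie 50731 and 51424 bases beyond the first, 693 bases from each other. Each had a full site close to the start, the first base of which was 56 bases before start 2 and 35 bases before start 3. A further full site lay within the 50 bases after start 3, which are not shown. Crem start 1 had core sites alone, 241 and 6 bases before it, and Sik1 had a pair of core sites 191 and 180 bases before its start. Of the 9 genes 8 were matched in the table, with 11 windows in all; Atf1 was not matched. Only the 2 Crem windows, among those 11, held the full site, against 1.59% of the 33469 windows of this length in the table. A core site (those inside a full site included) was found in 6 of the 11 windows, of Crem, Sik1, Creb1 and Crtc2, against 18.2% of all windows. These matches describe letters in a window and not bound sites, and which start gives rise to the RNA read by each probe set was not analysed here.

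With cAMP, Crem and Sik1 rose, 1 of the Crebbp probe sets fell, and no probe set of Creb1, Atf1, Crtc1, Crtc2, Crtc3 or Ep300 passed the test. Of the 25 probe sets, 17 were bright enough to be tested, at least 1 for each gene. Of these, 6 were higher and 1 lower with cAMP, while 10 did not pass. Over all 18625 probe sets tested, 7.29% were higher and 6.39% lower. The 6 higher ones were 5 of Crem and 1 of Sik1, so they stand for 2 genes. Passing means an adjusted p under 0.05 in the limma fit across all tested probe sets, and each log2 difference is cAMP minus control of log2(signal + 16), given ± its standard error. On that scale the change of a dim probe set is understated. None of the 17 depended on the cAMP arrays to clear the brightness filter, since the control mean alone would have cleared it in each case. Signals of different probe sets depend on their own probes and are not compared with each other. Since these are whole cultures, more RNA per cell and more cells carrying the RNA cannot be told apart.

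**Figure D1:**
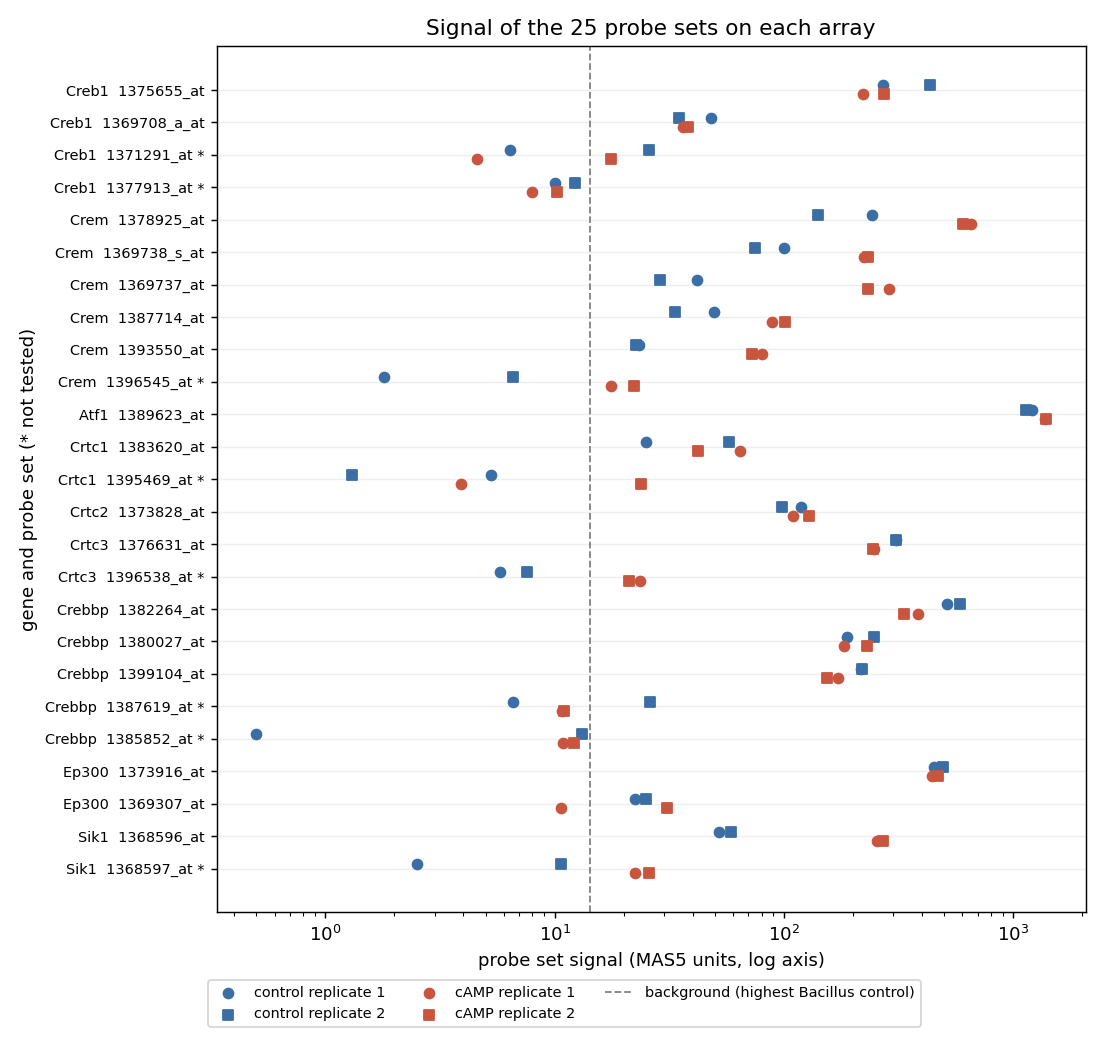
Signal of each of the 25 probe sets (rows, by gene) on the 2 control arrays (blue) and the 2 cAMP arrays (red), on a log axis in MAS5 signal units; circles are replicate 1, squares replicate 2, the dashed line is the highest Bacillus control signal (14.2) and an asterisk marks the 8 probe sets too dim to test. All 6 Crem and both Sik1 probe sets have both red points to the right of both blue points, while those of Creb1 overlap. How many of all probe sets separate in this way was not counted.

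The arrays themselves were evenly scaled. Median signals ran from 31.3 to 33.7, and between 64.3% and 66.4% of probe sets lay above 14.2, the highest of the 27 Bacillus control signals, taken here as background. Across tested probe sets the log2 signals of control replicates correlated at r = 0.967 and those of cAMP replicates at 0.984, so the control pair was the more variable. Control replicate 2 was further from the cAMP arrays (0.895 and 0.900) than control replicate 1 (0.9255 and 0.9235), and its 3' to 5' actin ratio, a sign of RNA integrity, was the highest of the 4 arrays at 2.25 against 1.65 to 1.86. Of 11 Sertoli markers on the array 10 were above background on all 4 arrays. Of the 10 tested by limma, 3 were higher with cAMP (Inha 2.04, Dhh 0.74 and Shbg 0.69) and 2 lower (Gata4 -0.94 and Aard -0.51). Of these 5 calls, that of Inha alone held in all 12 alternative settings. The other calls were lost with either cAMP array left out. Those of Shbg and Aard were also lost without the brightness filter, without the intensity trend and with quantile normalization. Markers of some other cells, though not of all, also moved with the groups. None passed by limma of the 4 germ cell, 1 Leydig cell and 2 macrophage markers tested. At an unadjusted limma p under 0.05 the macrophage marker Lyz2 was lower, from 47.3 and 108.6 to 26.4 and 27.6. Cd68, a macrophage marker below the brightness filter, went the other way. It read 4.1 and 6.2 in control, under background, and 28.1 and 45.2 with cAMP. The summed signal of 6 peritubular myoid markers was 442.8 to 600.3 in control and 165.5 to 215.4 with cAMP. Most of that fall was Tagln alone, from 344.5 and 264.3 to 1.3 and 7.4. Synpo2 fell too, Des rose, and Acta2 and Myh11 did not pass. For 4 endothelial markers the sums were 155.6 to 229.5 and 88.3 to 91.2. Most of that fall was Kdr alone, from 187.3 and 130.8 to 57.5 and 58.1, while Tek did not pass. For 3 red blood cell markers the sums were 62.1 to 62.4 and 871.2 to 1163, nearly all from Alas2. Their part in the results was not tested.

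Crem had the largest difference of the 17 tested probe sets. The probe set 1369737_at read 41.8 and 28.9 in control and 287.0 and 233.6 with cAMP, a log2 difference of 2.43 ± 0.21 (5.40-fold on this scale; adjusted p by limma = 0.000526). It ranked 110 from the top among the 18625 tested probe sets. The brightest Crem probe set, 1378925_at, read 242.1 and 140.3 in control and 656.4 and 601.4 with cAMP (1.68 ± 0.24, adjusted p by limma = 0.00429). Both cAMP signals lay well clear of both control signals in these cases, and the control arrays differed more from each other than the cAMP arrays did in the second.

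The remaining Crem probe sets went the same way with smaller differences. Signals of 1369738_s_at were 99.7 and 74.7 in control and 223.5 and 231.9 with cAMP (1.25 ± 0.19, adjusted p by limma = 0.00534). Those of 1393550_at were 23.4 and 22.6 against 80.1 and 72.6 (1.24 ± 0.19, adjusted p by limma = 0.00651). Those of 1387714_at were 49.3 and 33.5 against 88.8 and 101.1 (0.96 ± 0.22, adjusted p by limma = 0.0271). In none of these did the groups overlap. The sixth Crem probe set, 1396545_at, was below the brightness filter, at 1.8 and 6.6 in control, under background, and at 17.6 and 22.2 with cAMP, at least 1.39-fold higher with cAMP once the control values are raised to background. It did not pass when the filter was dropped (adjusted p by limma = 0.0932), so 5 of 6 Crem probe sets passed. All 6 had the cAMP arrays above the control arrays, but they read 1 gene. The share of all probe sets separated in this way was not counted.

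Estimates for Crem differed between its probe sets. For 1369737_at the 95% interval of the log2 difference ran from 1.94 to 2.92, and for 1387714_at from 0.46 to 1.47. The intervals do not meet. The difference between the probe sets was not tested. Raising the pseudocount from 16 to 64 brought the differences to 1.70 and 0.60, and lowering it to 4 gave 2.76 and 1.14. At 4 the dim 1393550_at gave 1.57 and 1378925_at gave 1.75, against 1.24 and 1.68 at 16. With either cAMP array left out, 1369737_at still passed (adjusted p by limma up to 0.0131). The brightest one, 1378925_at, missed the threshold without cAMP replicate 1 (adjusted p by limma = 0.0524, log2 difference 1.62) and passed without cAMP replicate 2 (0.0369). The other 3 were lost without cAMP replicate 1, at adjusted p by limma 0.0723, 0.0903 and 0.161, and also without cAMP replicate 2, at 0.0755, 0.0665 and 0.226. Without the brightness filter 1387714_at was lost as well (0.0781). Their log2 differences without 1 array stayed between 0.76 and 1.43.

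Since Crem is also a gene of spermatids, markers of germ cells were read beside it. Their summed signal over the 11 on the array was 3438 and 3154 in control and 3210 and 2422 with cAMP, and of the 4 tested members 0 passed by limma (0 also at an unadjusted p under 0.05). The 6 genes that define spermatids, Prm1, Prm2, Tnp1, Tnp2, Acrv1 and Odf1, reached at most 13.5 in control and 16.7 with cAMP, at or close to the background of 14.2. Most of the germ cell sum came from Sycp3, a gene of meiotic chromosomes, at 2340 and 2298 in control and 2258 and 1754 with cAMP (-0.22 ± 0.14, not passing). Ldhc read 811.6 and 627.2 in control and 659.7 and 427.4 with cAMP. Tekt1 read 157.6 and 123.5 against 133.5 and 110.6, so some germ cell RNA was present in both groups. Whether germ cells carried part of the Crem RNA was not tested.

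Creb1, which encodes CREB itself, did not pass on any probe set. The brightest, 1375655_at, read 271.2 and 431.5 in control and 221.4 and 272.0 with cAMP (-0.46 ± 0.23, 95% interval -1.0 to 0.09, adjusted p by limma = 0.252). The groups overlapped, and the result turned on the control arrays: without control replicate 1 the difference was -0.78 and passed (adjusted p by limma = 0.0157), and without control replicate 2 it was -0.14 (0.676). A second tested probe set, 1369708_a_at, read 48.1 and 34.8 against 36.4 and 38.3 (-0.10 ± 0.21, interval -0.60 to 0.40). The other 2 were too dim to test, at 4.6 to 25.9 and 8.0 to 12.3 over the 4 arrays.

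Atf1, the third factor of the family, had a single probe set, 1389623_at. It read 1205 and 1138 in control and 1379 and 1391 with cAMP, so the groups did not overlap. The difference of 0.24 ± 0.12 (interval -0.04 to 0.51) did not pass (adjusted p by limma = 0.234), nor did it under any of the 12 alternative settings, where it ran from 0.19 to 0.28. An increase of more than 0.51 on the log2 scale lies outside its 95% interval, whereas every tested Crem probe set had a larger estimate.

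**Figure D2:**
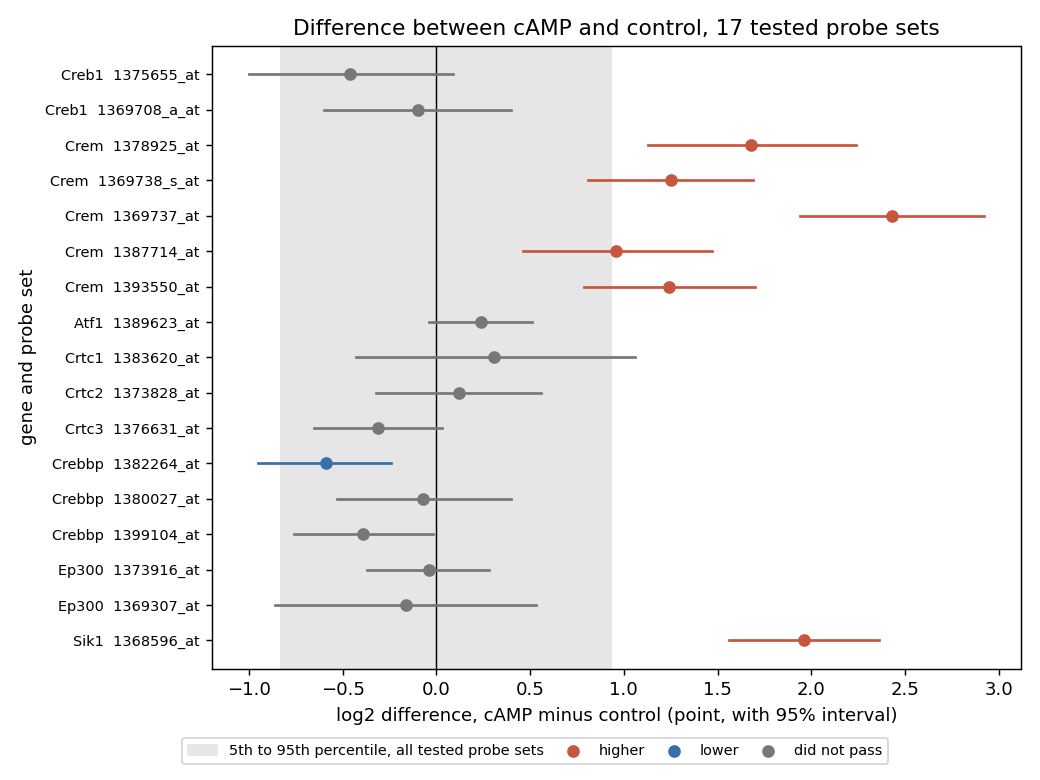
Log2 difference, cAMP minus control (x axis), of the 17 tested probe sets (rows), with its 95% interval by limma; red marks higher, blue lower and grey those that did not pass, and the grey band spans the 5th to 95th percentile of all tested probe sets (-0.83 to 0.93). The 5 Crem probe sets and Sik1 lie to the right of the band, from 0.96 to 2.43, and the estimates of the others lie inside it.

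No CRTC gene passed. Crtc2, the coactivator best known for cAMP responses in liver, read 119.1 and 97.8 in control and 109.6 and 128.9 with cAMP (0.12 ± 0.19, 95% interval -0.32 to 0.56). The groups overlapped. Crtc1, which is best known from neurons, read 25 and 57.6 against 64.3 and 42.1 on 1383620_at (0.31 ± 0.32, interval -0.43 to 1.06), where the spread within each group was wide. Its other probe set, 1395469_at, was untested, with 1 of 4 arrays above background.

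Crtc3 had closely matched replicates. The brighter probe set, 1376631_at, read 307.5 and 307.0 in control and 246.2 and 244.3 with cAMP, which put both cAMP arrays below both control arrays. The difference, -0.31 ± 0.14 (interval -0.65 to 0.03), did not pass (adjusted p by limma = 0.216). The dim probe set, 1396538_at, went the other way, from 5.8 and 7.6, under background, to 23.6 and 21.1, at least 1.57-fold higher. It was below the brightness filter and did not pass without it (adjusted p by limma = 0.0982), so the probe sets of Crtc3 differed in sign and neither was called.

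Crebbp, which encodes CBP, had 5 probe sets, of which 3 were tested and 1 passed. The brightest, 1382264_at, fell from 516.3 and 583.7 to 385.2 and 332.8 (-0.59 ± 0.15, adjusted p by limma = 0.042). On 1399104_at the signals were 217.5 and 218.7 in control and 171.8 and 153.7 with cAMP (-0.39 ± 0.16, interval -0.76 to -0.02), again without overlap, but with an adjusted p by limma of 0.157. The third, 1380027_at, read 187.5 and 247.4 against 182.5 and 230.1, which overlap (-0.07 ± 0.20, interval -0.53 to 0.40). The 2 others stayed between 0.5 and 26.1 and were not tested.

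The call on Crebbp was close to the threshold. Its log2 difference stayed between -0.70 and -0.49 in the 12 alternative settings, but 6 of these lost the call. The adjusted p by limma was 0.188 without cAMP replicate 1. It was 0.344 when cAMP replicate 2 was omitted, and 0.0638 when control replicate 2 was. It was 0.0563 with each array centred on its median, 0.0753 without the brightness filter and 0.081 without the intensity trend.

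Ep300, which encodes p300, the close relative of CBP, read 450.1 and 493.0 in control and 444.0 and 469.9 with cAMP on 1373916_at. The difference was -0.04 ± 0.14, with a 95% interval from -0.37 to 0.28. The control and cAMP signals were interleaved. Its dim probe set, 1369307_at, read 22.3 and 25 against 10.6 and 31.0 (-0.16 ± 0.30), with the cAMP arrays further apart than the control arrays.

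Sik1, the kinase that restrains the CRTC proteins and is itself a known target of CREB, rose on its main probe set. The probe set 1368596_at read 51.9 and 58.9 in control and 254.5 and 269.9 with cAMP (1.96 ± 0.17, 3.90-fold on this scale, adjusted p by limma = 0.000556). Replicates lay close together and the groups were far apart. It passed under all 12 alternative settings, with log2 differences from 1.45 to 2.17 and adjusted p by limma up to 0.0152. The dim probe set, 1368597_at, read 2.5 and 10.6, under background, in control and 22.4 and 25.7 with cAMP, at least 1.69-fold higher. It was not tested because of the brightness filter, and without the filter its adjusted p by limma was 0.13.

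**Figure D3:**
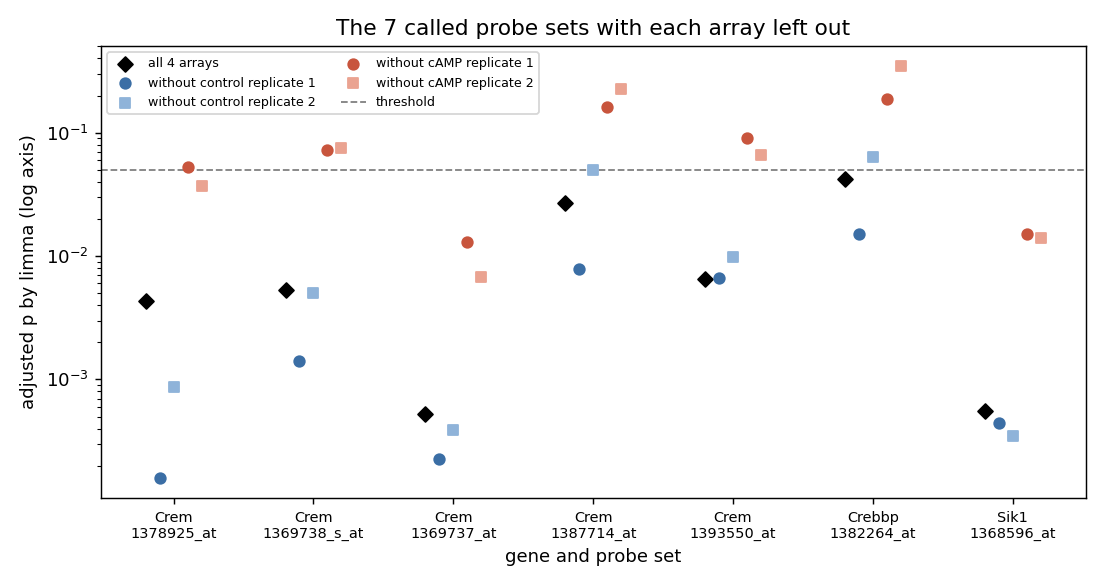
Adjusted p by limma (log axis) of the 7 probe sets called with all 4 arrays (black diamonds) and after each array was left out (circles replicate 1, squares replicate 2; blue control, red cAMP), with the threshold of 0.05 dashed. Crem 1369737_at and Sik1 1368596_at stay below the line in every case, and the other Crem probe sets and Crebbp cross it when a cAMP array is left out, as Crebbp also does without control replicate 2.

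Profiles over the 4 arrays were compared for the 3 genes called on their brightest probe set, by Euclidean distance of centred log2 values over 10026 other genes. Closest to Sik1 were B4galt7 (distance 0.0558), an enzyme of proteoglycan synthesis, at 99.6 and 114.9 in control and 439.8 and 457.7 with cAMP, then Apoc3 (0.103) and Gsap (0.129). Apoc3 read 4.0 on both control arrays, under background. Closest to Crem were Spata2L (0.0716), the cytokine gene Clcf1 (0.108) and Gpx2 (0.111), a glutathione peroxidase. Spata2L read 16.9 and 4.3 in control and 65.9 and 60.5 with cAMP. Spata2L and Apoc3 cleared the brightness filter only through their cAMP arrays, since their control means alone lay below it. Clcf1 read 47.2 and 21.6 in control and 145.2 and 146.4 with cAMP, and so shared with Crem a lower control replicate 2. Closest to Crebbp were the zinc finger gene Zfp628 (0.0224), the forkhead factor gene Foxo3 (0.0307) and Foxp4 (0.0428). With 4 arrays such distances mainly rank genes by a like difference and describe no link between them.

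Other genes of the CREB and ATF family moved in both directions. Of 15 tested, 3 rose, 2 fell and 10 did not pass, with a median log2 difference of 0.13 against -0.03 over all 10035 tested genes. By the brightest probe set of each gene, 8.27% of all tested genes were higher and 7.14% lower. Atf5, a stress-responsive factor, read 115.3 and 118.3 in control and 333.1 and 329.7 with cAMP (1.39 ± 0.15). Atf4, the factor of the integrated stress response, rose by 0.70 ± 0.14, and the repressor gene Nfil3 by 0.75 ± 0.16. Crebzf fell from 767.5 and 848.9 to 426.9 and 423.1 (-0.90 ± 0.13), and Creb5 fell from 308.9 and 276.9 to 173.8 and 146.2 (-0.81 ± 0.17). Atf5 alone passed without cAMP replicate 1, and again without cAMP replicate 2, while the other 4 had adjusted p by limma from 0.083 to 0.223 and from 0.0805 to 0.214. Without control replicate 1 more genes of this list passed, as did more probe sets over the whole array.

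Kinases that act on CREB or CRTC proteins gave 3 higher and 1 lower of 16 tested (median 0.02). The relatives of Sik1 differed: Sik3 read 423.6 and 429.2 in control and 637.6 and 626.4 with cAMP (0.55 ± 0.13, higher), and Sik2 read 131.5 and 170.3 against 130.3 and 134.1 (-0.16 ± 0.18, not passing). Rps6ka5, which encodes the CREB kinase MSK1, rose by 1.41 ± 0.32, with control arrays at 60.9 and 133.2 that were far apart. Mapkapk2, a kinase of the p38 pathway, rose by 1.00 ± 0.16. Prkaa2, a catalytic subunit gene of AMP-activated kinase, fell from 255.7 and 407.4 to 91.6 and 117.8 (-1.50 ± 0.24). The protein kinase A subunit genes Prkaca (-0.20 ± 0.17) and Prkacb (0.35 ± 0.19) did not pass. All of these calls were lost without cAMP replicate 1, and those of Sik3 and Rps6ka5 also without cAMP replicate 2. Most calls over the whole array were lost in these settings too, so the losses are not particular to these genes.

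Genes of phosphatases that oppose those kinases, and of their regulators, were 2 higher and 0 lower by limma of 13 tested, with a median of 0.15. At an unadjusted limma p under 0.05 they were 4 and 1, against 1491 higher and 1522 lower of all 10035 tested genes. Ppp2ca, the catalytic subunit of protein phosphatase 2A, rose from 199.6 and 192.5 to 416.1 and 402.5 (1.00 ± 0.14), and Ppp1r2, an inhibitor of protein phosphatase 1, rose by 0.61 ± 0.14. Ppp3ca (-0.02), Ppp3cb (0.15) and Ppp3r1 (0.12), subunits of calcineurin, the phosphatase that releases CRTC proteins, did not pass. Both calls were lost without cAMP replicate 1 (adjusted p by limma 0.0881 and 0.218) and without cAMP replicate 2 (0.0708 and 0.251). The list had more calls when control replicate 1 was left out, as had the array as a whole. Of the 7 genes of 14-3-3 proteins, which hold phosphorylated CRTC in the cytoplasm, Ywhab rose from 1103 and 1104 to 1682 and 1586 (0.56 ± 0.12) and Ywhag rose by 0.73 ± 0.17, while 5 did not pass (median 0.29). Both were likewise lost without cAMP replicate 1 (0.267 and 0.273) or cAMP replicate 2 (0.15 and 0.184). With control replicate 1 left out more of them passed, as again did more of all probe sets.

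Partners and cofactors of CREB, CREM, CBP and p300 gave 1 higher and 3 lower of 20 tested (median 0.01). Fhl2, a LIM-domain coactivator of CREB and CREM, fell from 180.7 and 178.4 to 26.7 and 27.3 (-2.19 ± 0.18). The class II histone deacetylase genes Hdac5 and Hdac7, whose products are also held in the cytoplasm by phosphorylation, fell by 0.91 and 0.81 on the log2 scale (SE 0.16 and 0.22), whereas Hdac4 did not pass (0.17 ± 0.19). Cebpb, a bZIP factor that works with CBP, rose from 110.8 and 53.4 to 389.7 and 391.8 (2.12 ± 0.28). Cited2, a CBP and p300 binding protein, did not pass (-0.22). Fhl2 and Cebpb passed in all 12 settings. Hdac5 was lost without cAMP replicate 1 and without cAMP replicate 2, and Hdac7 with any 1 array left out (adjusted p by limma 0.0573 to 0.367 over these cases).

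Known CREB targets other than Crem and Sik1 gave 16 higher and 2 lower genes of 30 tested, while 12 did not pass. Their median log2 difference was 0.77, against -0.03 over all 10035 tested genes. Of all these genes 8.27% were higher and 7.14% lower. The 6 with the smallest p were Pde4d, Star, Pde10a, Nr4a3, Pde4b and Nr4a1, with log2 differences from 2.80 to 5.30. Those lower were the immediate-early gene Egr1 (-1.33 ± 0.19) and Irs2, an insulin receptor substrate (-0.98 ± 0.20), which went from 333.5 and 442.5 to 164.3 and 213.9. The clock genes in the list, chosen after their values were seen, were Per2, which rose from 82.4 and 81.5 to 230.8 and 217.4 (1.29 ± 0.16), and Per1, which did not pass (0.31 ± 0.19). Another 14 of the listed targets, Fosb, Bdnf and Cyp19a1 among them, were on the array but below the brightness filter. Of the higher targets, Pde10a, Nr4a2, Pck1 and Gem cleared that filter only through their cAMP arrays, since their control means alone lay below it. The count among the tested targets is raised by this. Without the filter 13 of 44 targets were higher and 1 lower, with a median log2 difference of 0.19. In that fit 873 of all 31042 probe sets were higher and 725 lower. The share over all genes without the filter was not counted. Without cAMP replicate 1 the list counted 11 higher genes and no call was left among the lower ones, since Nr4a2, Egr1, Per2, Ldha, Pck1, Irs2 and Shbg were lost (adjusted p by limma 0.0604 to 0.338). All but Egr1 and Per2 of these were lost without cAMP replicate 2 as well (0.0696 to 0.222), Nr4a2 also without control replicate 1 (0.0514) and Shbg also without control replicate 2 (0.0587). The list was drawn up with results of these arrays known and is not independent evidence of its direction.

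**Figure D4:**
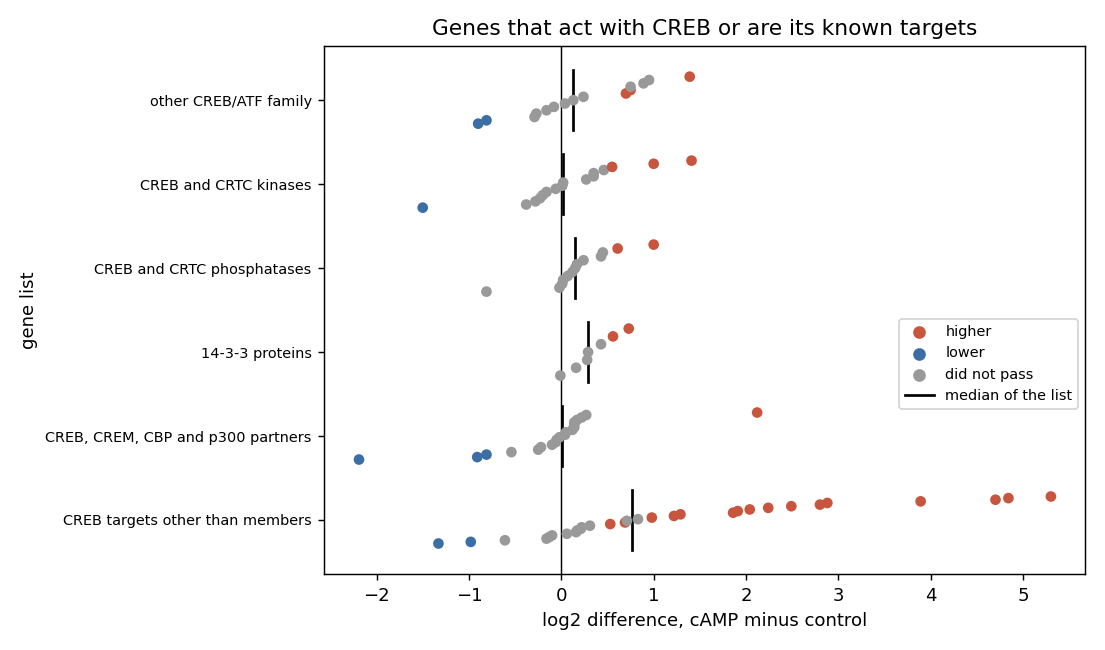
Log2 difference, cAMP minus control (x axis), of each tested gene (points) in 6 lists of genes that act with CREB or are known targets (rows); red is higher, blue lower, grey did not pass, and the bar is the list's median. The targets have a median of 0.77, and the medians of the 5 other lists lie between 0.01 and 0.29.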

How the data were processed

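RNA of 4 Sertoli cell cultures, 2 control and 2 with cAMP, had been hybridised to one-colour Affymetrix rat arrays. The authors deposited 1 linear intensity per probe set and array. The submitters' processing notes name GCOS and MAS5, with no version, setting or genome build stated in the labels. The mean without the lowest and highest 2% was 125 on each array, so no further normalization was applied. Detection calls were not used here. Of 31099 probe sets, 20832 carried 1 platform symbol, 436 several and 9831 none; 20764 were matched to the GRCr8 RefSeq gene table.

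From these log2(signal + 16) was computed. After removing 57 control probe sets and those with a mean under the 40th percentile (5.10), 18625 probe sets were fitted with limma 3.58.1 in R 4.3.3 (lmFit, eBayes with intensity trend, two-sided, Benjamini-Hochberg adjustment, threshold 0.05). On 20 simulated data sets of 18625 probe sets for cAMP against control, 200 probe sets were changed in each and both groups had the same spread. There 67.8% of 2-fold and 98.2% of 4-fold changes were recovered and 4.85% of calls were false. The real arrays gave 2549 calls and had a more variable control pair, so these shares need not hold for them. For member probe sets a bound is printed (at least N-fold) where both arrays of the dimmer group lay at or below background and the groups did not overlap. Values under background were raised to it for this bound, and the number of arrays limits the precision. For Crtc1 1395469_at and Crebbp 1387619_at, whose groups overlapped, no bound is printed. For lists the brightest probe set stood for a gene. Members and lists were chosen with earlier results of these data known. The rule for named genes took all 9 members, up to 6 called genes with the smallest p per list (all where 5 or fewer), and the 3 nearest profiles of each called member. Other list members given beside a count were chosen after their values were seen. Alternatives covered the pseudocount, filter, scaling, intensity trend, replicate block, probe set choice and each array left out. Where an array was left out, the 18625 probe sets chosen on all 4 arrays were tested; with 1 array left in a group, that array is assumed to vary like the other group. Calls over all probe sets fell with either cAMP array left out and rose most without control replicate 1. Losses without a cAMP array and gains without control replicate 1 were thus shared by the array as a whole. Some calls were lost when a control array was left out, although calls over all probe sets did not fall there. Among them were Nr4a2 and Hdac7 without control replicate 1, and Crebbp, Shbg and Hdac7 without control replicate 2.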

Additional observations from a re-analysis of the deposited data

How the results depend on the processing

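The 2549 calls over all probe sets fell to 1598 without the brightness filter, where more probe sets were tested, and ranged from 713 to 4790 with 1 array left out. The number of Crem and Sik1 probe sets called higher, 6, ranged from 2 to 6 with 1 array left out and was 5 or 6 in every other alternative. The single lower probe set, of Crebbp, was not called by limma with median centring (0 lower, 1 at an unadjusted p under 0.05), without the filter (0, and 3 unadjusted) and without the intensity trend (0, and 2 unadjusted). With 1 array left out the lower probe sets ranged from 0 to 2 (0 to 2 unadjusted), the 2 being those of Crebbp and Creb1 without control replicate 1; the cause was not tested. With the replicate number as a block, 3035 probe sets were called, and the members kept 6 higher and 1 lower. The labels do not say that a number marks a shared preparation, and the deviations of same-numbered arrays correlated at r = 0.163 over tested probe sets. Without the filter 2 kinase genes, 1 phosphatase gene and 1 gene of 14-3-3 proteins were called, against 4, 2 and 2, and without the intensity trend 1 phosphatase gene and 0 genes of 14-3-3 proteins by limma. Alternative pseudocounts of 4 and 64, quantile normalization and a 60th percentile filter, which leaves 1 Crem probe set untested, kept the other calls among members. With 2 arrays a group and signals near background for 8 of 25 probe sets, small differences of the dim ones were not detectable.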

Other observations

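The full cAMP response element was also looked for in the 250 bases before the annotated starts of all other genes, a search added after the data had been seen. Of 273 tested genes with the full site in at least 1 window, members left out, 22 were higher and 6 lower with cAMP by limma, that is 8.06% and 2.20%. Over all 8468 tested genes with a window, 8.15% were higher and 6.73% lower. The share of higher genes was thus close to that of genes at large, and the difference in the share of lower genes was not tested. The median log2 difference was 0.01 against -0.03.

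Among the 22, Pak1, a kinase of the actin cytoskeleton, had the largest difference, from 208.1 and 140.2 in control to 1155 and 1032 with cAMP (2.57 ± 0.20). Ier2, an immediate-early gene, went from 193.3 and 122.2 to 771.5 and 729.0 (2.17 ± 0.21), and Ch25h, which makes an oxysterol, from 29.3 and 39.4 to 134.5 and 167.2 (1.73 ± 0.21). Ppp2ca and Ldha, the lactate dehydrogenase gene known for its response to cAMP in Sertoli cells, were among them too. Of the 6 lower ones Daam2, a formin, had the largest difference, from 456.8 and 553.7 to 78.4 and 96.2 (-2.33 ± 0.18), followed by the cytokine gene Mif (-0.92 ± 0.13).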
